A study of Mus musculus with 6 samples.

Results

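Respiratory complex I, the NADH dehydrogenase of the mitochondrial inner membrane, is built partly from proteins encoded in mitochondrial DNA, and the 7 genes for these proteins are described here: mt-Nd1, mt-Nd2, mt-Nd3, mt-Nd4, mt-Nd4l, mt-Nd5 and mt-Nd6. They were chosen by symbol, and all 7 had a row among the 16095 genes of the table. Every one of them had a mean of at least 10 normalized counts, so all 7 entered the tests. Complex I takes electrons from NADH, passes them to ubiquinone and pumps protons across the membrane, and the mitochondrially encoded subunits form the core of its membrane arm, where the proton channels lie. The mitochondrial genome is transcribed from both strands as long precursors that are cut into single RNAs, mostly at the tRNAs between the genes. By convention 6 of the members are called heavy-strand genes and mt-Nd6 is the light-strand gene, the only protein gene of that strand. Tubule cells of the distal nephron spend much of their respiratory ATP on sodium transport and are rich in mitochondria.

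RNA was sequenced from kidney epithelial cells of 6 mouse libraries, 3 control and 3 Terf1_flox. Control mice were Trf1+/+ and Terf1_flox mice Trf1lox/lox, Trf1 being the protein name of Terf1, a telomere-binding shelterin gene. All mice of both groups were KFP+/t (a fluorescent reporter) and Cre+/t, and all received tamoxifen by intraperitoneal injection 3 times a week for 8 weeks, beginning at 6 to 8 weeks of age. The tamoxifen-dependent Cre was under the Ksp-cadherin promoter, active in tubule and collecting duct epithelium, so the groups differ in the floxed allele and not in Cre or drug. Males and females were used and the sex of a library is not labelled. Cells were sorted by EpCAM staining and reporter signal, and a low-input kit for polyadenylated RNA was used. Whether a library holds 1 mouse or a pool is a point not given in the sources used here. The p-values therefore measure only the spread between these libraries, which may be technical.

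Libraries held 13582140 to 17680986 reads in the control group and 13870931 to 15375471 in the Terf1_flox group. Terf1, the targeted gene, was at 529.6, 486.1 and 663.9 normalized counts in control libraries and at 62.0, 24.6 and 25.3 in Terf1_flox libraries, which fits the labels. Summed over 7 markers of the thick ascending limb, the level was 228690 to 283470 in controls and 183860 to 201790 in Terf1_flox libraries. The log2 fold change was above 0 for 4 of these markers and below 0 for 3 (median 0.04), so the sum does not describe them all. DESeq2 called 3 of the 7 lower and 0 higher, against 3% and 2.21% of all genes tested. Over 7 detected proximal tubule markers the sums were 3617, 2567 and 1111 in control libraries 1 to 3 and 5334, 2861 and 13224 in Terf1_flox libraries 1 to 3. Control replicate 3 thus had the lowest sum and Terf1_flox replicate 3 the highest. Of the 6 that were tested, 4 were above 0 and 2 below (median log2 fold change 0.19). The 7 intercalated cell markers summed to 8866 to 20613 and 6011 to 11801, with 7 of 7 below 0 (median log2 fold change −1.63), and 5 of 6 principal cell markers were below 0 (median −1.38; sums of 993 to 2438 and 415 to 1777). Of cells outside the sort, 5 of 7 erythroid markers were in the table, with sums of 264 to 832 and 333 to 650. So were 4 of 10 macrophage markers, with sums of 75.3 to 106 and 55.4 to 171, and 1 of 8 endothelial and 1 of 8 fibroblast markers. The endothelial marker was at 4.77 to 59.8 in controls and 1.09 to 5.06 in Terf1_flox libraries. Of 8 lymphocyte markers 3 were in the table. Their sums were low, 4.74 to 17.2 in controls and 24.6 to 136 in Terf1_flox libraries, with no overlap. The female-specific transcript Xist was present in all 6 libraries, at 1380 to 2872 in controls and 1577 to 2700 in Terf1_flox libraries. The part of these differences in the results below was not tested. Within groups, control replicate 3 had the lowest value of all 6 libraries for 7 of 7 members and Terf1_flox replicate 3 the highest for 7 of 7, and results that rest on such a library are also given without it.

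The sequences below show where the members touch each other or a nuclear gene, which sets how far a short read can be given to 1 gene. They are annotated transcripts of GENCODE release M21 (build GRCm38), printed 5′ to 3′; coordinates are left out because the deposited values rest on another build. The first pair is the junction of mt-Nd4l and mt-Nd4, which overlap by 7 bases on the same strand, in capitals.
mt-Nd4l end: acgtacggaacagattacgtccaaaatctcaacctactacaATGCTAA
mt-Nd4 start: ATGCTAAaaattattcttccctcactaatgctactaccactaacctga
The second pair is the junction of mt-Nd5 and mt-Nd6, whose 3′ ends overlap by 14 bases on opposite strands. The capitals mark these bases, and each run of capitals is the reverse complement of the other.
mt-Nd5 end: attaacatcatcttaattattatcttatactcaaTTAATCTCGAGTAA
mt-Nd6 end: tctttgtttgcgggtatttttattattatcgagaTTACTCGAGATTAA
The third pair is the start of mt-Nd3 and of its nuclear copy Gm28438, annotated on chromosome 1. The copy aligned over 345 of 348 bases with 1 difference, T3C, in capitals (mt-Nd3 base first, position counted from 1 at the 5′ end of mt-Nd3).
mt-Nd3 start: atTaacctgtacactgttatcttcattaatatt
Gm28438 start: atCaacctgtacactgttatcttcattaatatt
The last sequence is the whole of mt-Nd4l, the shortest member at 297 bases. The nuclear Gm10222 was 100% identical over its first 294 bases, and the capitals mark the 3 bases outside that alignment.
mt-Nd4l: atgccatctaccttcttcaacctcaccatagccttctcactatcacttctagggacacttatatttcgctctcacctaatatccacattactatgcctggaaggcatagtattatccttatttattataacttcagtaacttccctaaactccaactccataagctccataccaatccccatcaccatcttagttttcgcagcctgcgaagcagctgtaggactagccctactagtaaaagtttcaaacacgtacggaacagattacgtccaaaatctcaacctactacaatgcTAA

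Base composition separates the light-strand gene from the rest, as the ends of mt-Nd5 and mt-Nd6 show. The mt-Nd6 transcript held 28.1% G, 5.97% C and 43.7% T. The 6 heavy-strand members held 8.00% to 11.6% G and 22.1% to 30.0% C. GC content as a sum was similar, 34.1% in mt-Nd6 and 33.0% to 41.1% in the others. The members ran from 297 bases (mt-Nd4l) to 1824 bases (mt-Nd5).

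Nuclear copies of mitochondrial DNA cover the members very unequally. Of all 50-base windows of a transcript, the share also found in an annotated nuclear transcript was 0% for mt-Nd1 and mt-Nd6, 7.61% for mt-Nd5, 8.19% for mt-Nd2, 62.2% for mt-Nd4, 98.0% for mt-Nd3 and 98.8% for mt-Nd4l. In mt-Nd4 the shared part was the 5′ stretch: Gm28439 was 100% identical over bases 1 to 876 of 1378. Closest copies of the others were more diverged, with 96.667% identity over 510 bases for mt-Nd2 (Gm13339), 95.178% over 954 bases for mt-Nd5 (Gm4076) and 93.642% over 519 bases for mt-Nd6 (Gm11408); none was found for mt-Nd1. Copies in unannotated sequence were not searched. The authors' treatment of reads that fit several places, a setting not given in the sources used here, makes the levels of mt-Nd3, mt-Nd4l and the 5′ part of mt-Nd4 uncertain. Under these names, Gm28438, Gm10222, Gm28439 and Gm11408 had no row among the deposited values, while Gm13339 and Gm4076 had one.

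Levels between genes can be compared only per length, as normalized count per kilobase of transcript. By control means, mt-Nd1 was highest at 181422 ± 49606 per kb (SD, n = 3 here and below), followed by mt-Nd4 at 91982 ± 25482, mt-Nd2 at 85993 ± 29848 and mt-Nd6 at 82674 ± 30560. These last 3 lay within 1 SD of each other. Below them came mt-Nd5 at 34265 ± 3096, mt-Nd3 at 5051 ± 3755 and mt-Nd4l at 345 ± 68.2. The 2 members that are almost wholly shared with nuclear copies were thus the lowest 2. Other mitochondrial mRNAs with nearly all windows shared ranged widely: mt-Co2 (100%) was at 1379 ± 513 per kb, mt-Co3 (99.9%) at 18695 ± 7048 and mt-Atp6 (99.5%) at 26504 ± 5598, the last not far below mt-Nd5. Of those with none shared, mt-Cytb and mt-Atp8 (0% shared) were at 569539 ± 136834 and 367012 ± 106442. These levels are descriptions of 13 genes of 1 genome in the same libraries. The parts of read assignment and of the capture of polyadenylated RNA in them were not tested.

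**Figure D1:**
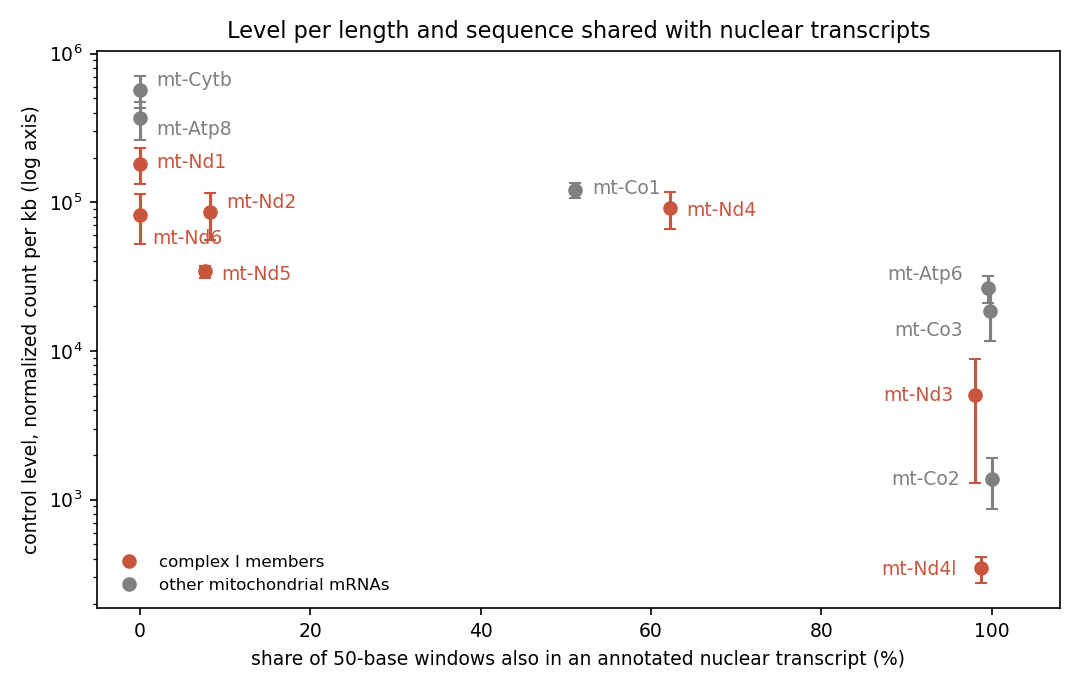
Control level per length (y axis, normalized count per kb, log axis; points are means and bars SD of 3 libraries) against the share of 50-base windows found in an annotated nuclear transcript (x axis, percent) for 13 mitochondrial mRNAs. The complex I members mt-Nd3 and mt-Nd4l lie at the lower right, with 98.0% and 98.8% of windows shared, and mt-Nd1 lies at the upper left.

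The comparison of Terf1_flox with control libraries asks how these transcripts stand in epithelium with the Terf1 deletion. All 7 members had a higher mean in Terf1_flox libraries, and the log2 fold changes ran from 0.42 to 0.97, though mt-Nd3, mt-Nd4l and mt-Nd6 turned below 0 after a correction for GC content and length. The median over the 7 was 0.70, beside −0.08 over all 14822 genes tested. For 5 of 7 members the groups did not overlap, with every Terf1_flox library above every control library; 10.3% of all genes tested showed the same. None passed the limma test: 0 of 7 members had a Benjamini-Hochberg adjusted p below 0.05, and limma called 0% of the 14822 genes (2095 genes at an unadjusted p below 0.05). At an unadjusted limma p below 0.05, 4 of 7 members were higher (mt-Nd1, mt-Nd2, mt-Nd4 and mt-Nd5), against 5.7% of all genes tested. That number was 0 after the correction for GC content and length, 1 with quantile normalization and 3 with equal totals. It was 5 with Xist as a covariate and 5 among genes whose mean was at least 50. All 7 stayed above 0 when any 1 library was left out, and the number at an unadjusted limma p below 0.05 was then 3 without control replicate 3, 3 without Terf1_flox replicate 3 and 6 without control replicate 2. With quantile normalization the log2 fold changes were smaller for mt-Nd1 (0.39), mt-Nd2 (0.62), mt-Nd4 (0.29), mt-Nd5 (0.19) and mt-Nd6 (0.20), and with equal totals that of mt-Nd5 was 0.25. On recovered whole reads, edgeR called 0 genes, though 1993 had an unadjusted p below 0.05. DESeq2, on the same reads, marked 2 of 7 members as higher, mt-Nd1 and mt-Nd2, against 2.21% of all genes tested. Because control replicate 3 was lowest and Terf1_flox replicate 3 highest for 7 of 7 members, the members are not separate observations. In bulk RNA, more of these transcripts per cell and a different mix of cells cannot be told apart.

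**Figure D2:**
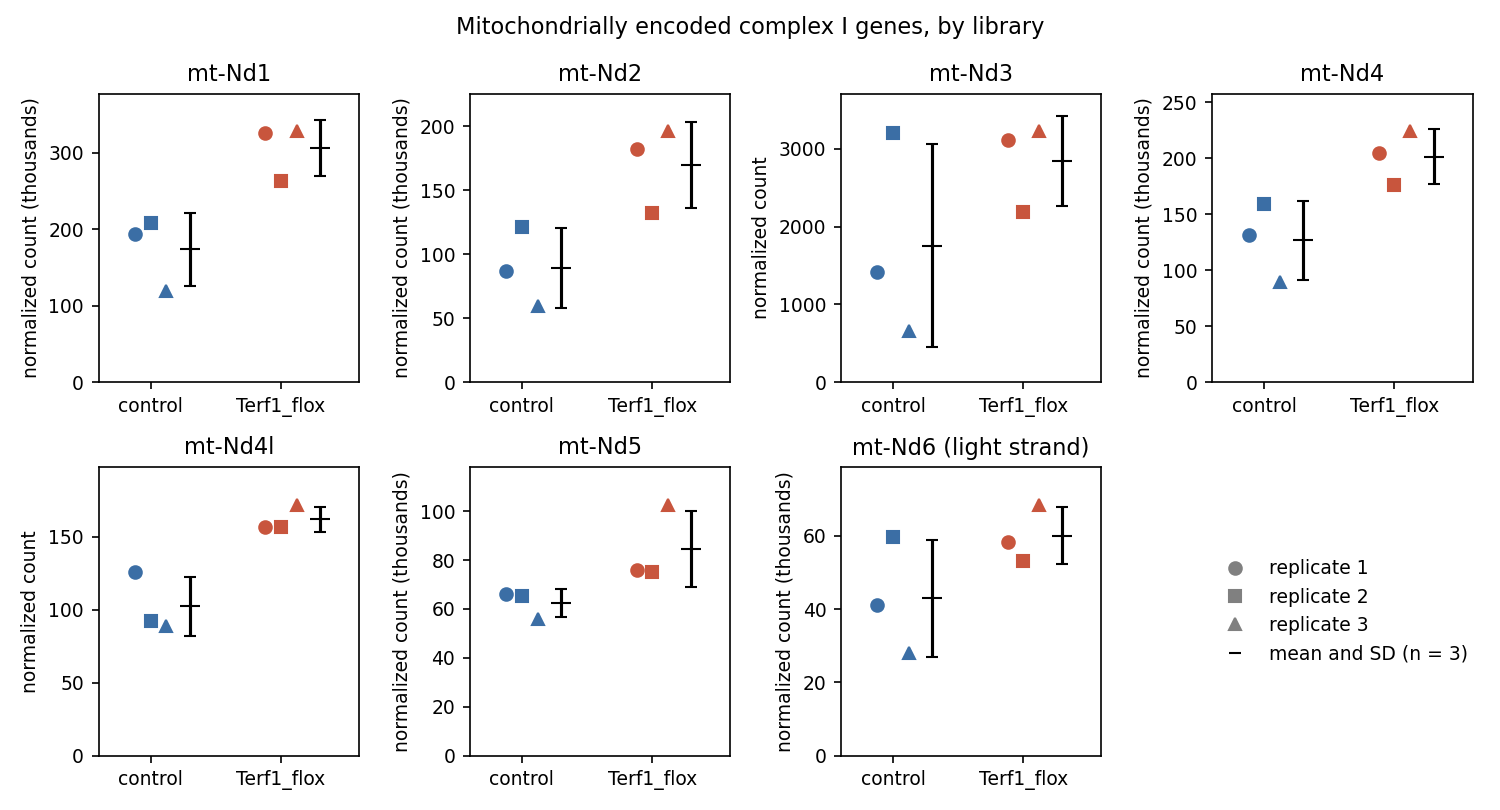
Normalized counts (y axes, from 0, scaled as each panel states) of the 7 members in each library of the control and Terf1_flox groups; marker shapes are replicate numbers, and the line and bars are the mean and SD of 3 libraries. Control replicate 3 is the lowest point in all 7 panels and Terf1_flox replicate 3 the highest, and only mt-Nd3 and mt-Nd6 show overlap between the groups.

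The subunits ND1 and ND3 sit where the membrane arm meets the peripheral arm, close to the site at which ubiquinone is reduced. The mt-Nd1 transcript was at 193724, 207735 and 119404 normalized counts in control libraries 1 to 3 and at 326209, 263298 and 328129 in Terf1_flox libraries 1 to 3. Every Terf1_flox library was above every control library, and the lowest value, control replicate 3, was well below the other controls. Group means were 173621 ± 47473 and 305879 ± 36888. The log2 fold change was 0.85 ± 0.20 (± is the standard error of a log2 fold change, here and below), with a limma Benjamini-Hochberg adjusted p of 0.142, an edgeR adjusted p of 0.210 and a DESeq2 adjusted p of 0.0237. It was 0.60 without control replicate 3 and 1.00 without control replicate 2.

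The mt-Nd3 transcript stood at 1412, 3203 and 658 normalized counts in control libraries and at 3119, 2183 and 3229 in Terf1_flox libraries. The groups overlapped, because control replicate 2 was nearly as high as the highest Terf1_flox library. Its control values spread 4.86-fold from lowest to highest, the widest of the members. Means were 1758 ± 1307 and 2844 ± 575. The log2 fold change of 0.96 ± 0.51 had a limma Benjamini-Hochberg adjusted p of 0.443. It was 0.40 without control replicate 3 and 1.54 without control replicate 2, so its size rests on these libraries. It was −0.14 after the GC content and length correction.

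ND2, ND4 and ND5 are the large subunits that resemble bacterial ion antiporters and form the proton channels of the membrane arm. For mt-Nd2 the controls had normalized counts of 86892, 121359 and 59531, and the Terf1_flox libraries had 181991, 132282 and 196342. The groups were apart, with Terf1_flox replicate 2 only a little above control replicate 2. Means were 89261 ± 30982 and 170205 ± 33617. The log2 fold change of 0.97 ± 0.25 was the largest of the members, with a limma Benjamini-Hochberg adjusted p of 0.163, an edgeR adjusted p of 0.219 and a DESeq2 adjusted p of 0.0212. It was 0.71 without control replicate 3.

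For mt-Nd4 the normalized counts were 131434, 159290 and 89531 in controls and, in Terf1_flox libraries, 204674, 175751 and 224286. The groups did not overlap. Means were 126752 ± 35114 and 201571 ± 24416. The log2 fold change was 0.70 ± 0.20 (limma Benjamini-Hochberg adjusted p = 0.193, DESeq2 adjusted p = 0.0777), and 0.47 without control replicate 3. The 5′ part of mt-Nd4 is the part shared with Gm28439.

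The longest member, mt-Nd5, was the steadiest across control libraries, at 66019, 65495 and 55985 normalized counts, a 1.18-fold spread. Terf1_flox libraries held 75750, 75306 and 102675, all above the controls and with replicate 3 well above the other 2. Group means were 62500 ± 5648 and 84577 ± 15675. The log2 fold change of 0.42 ± 0.15 was the smallest of the 7 (limma Benjamini-Hochberg adjusted p = 0.264, DESeq2 adjusted p = 0.228). Without Terf1_flox replicate 3 it was 0.28.

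ND4L is a small subunit of the membrane arm beside ND2, and ND6 lies near the junction of the arms. Few reads were given to mt-Nd4l, 97 to 170 per library. Its values were 125.8, 92.5 and 89.2 normalized counts in controls and 156.6, 157.0 and 172.0 in Terf1_flox libraries. The groups did not overlap, with means of 102 ± 20.3 and 161.9 ± 8.78, and the log2 fold change of 0.67 ± 0.56 carried the largest standard error of the 7 (limma Benjamini-Hochberg adjusted p = 0.637). The corrected log2 fold change, for GC content and length, was −0.20. Without molecular identifiers, depth speaks to counting error only.

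The light-strand gene mt-Nd6 was at 41032, 59623 and 28069 normalized counts in controls and at 58331, 53221 and 68523 in Terf1_flox libraries. Control replicate 2 exceeded Terf1_flox replicates 1 and 2, so the groups overlapped. Means were 42908 ± 15860 and 60025 ± 7790. The log2 fold change of 0.54 ± 0.25 had a limma Benjamini-Hochberg adjusted p of 0.371 and a DESeq2 adjusted p of 0.355. It was 0.27 without control replicate 3 and 0.81 without control replicate 2, and −0.35 after the GC content and length correction. The counting is not stated to use strand, and reads from mt-Nd6 and from RNA of the opposite strand at that place cannot then be told apart.

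Set against the heavy-strand genes within each library, mt-Nd6 was lower in Terf1_flox libraries. This ratio does not depend on how a library is scaled. It can depend on how well the kit for polyadenylated RNA captured each transcript, which was not tested. The log2 ratio of mt-Nd6 to the mean log2 value of the 6 heavy-strand members was 1.25, 1.53 and 1.31 in controls and 1.07, 1.19 and 1.16 in Terf1_flox libraries. All 3 Terf1_flox values were below all 3 control values, by 0.22 on average. The exact two-sided permutation p was 0.1, the smallest that 3 libraries against 3 can give, so no ratio could pass a threshold of 0.05. The mean of the 6 includes mt-Nd3 and mt-Nd4l, whose read assignment is uncertain. Against mt-Nd1, mt-Nd2 and mt-Nd5 alone, a choice made after the data were seen, the ratio differed by −0.21 with overlapping groups (exact permutation p = 0.2).

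Single denominators did not all give the same direction. The ratio of mt-Nd6 to mt-Nd1 was lower in Terf1_flox libraries by a log2 difference of −0.31, to mt-Nd2 by −0.43 and to mt-Nd4 by −0.16. Each of these separated the groups, with an exact permutation p of 0.1 and 0.2 after Benjamini-Hochberg adjustment over the 6 ratios. The ratio to mt-Nd3 differed by −0.42 (adjusted exact permutation p = 0.6) and that to mt-Nd4l by −0.13 (adjusted p = 1), with overlap. For mt-Nd5, the neighbour of mt-Nd6 on the opposite strand, the log2 ratio was −0.686, −0.136 and −0.996 in controls and −0.377, −0.501 and −0.583 in Terf1_flox libraries. That is a difference of 0.12, in the other direction (adjusted exact permutation p = 0.84).

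**Figure D3:**
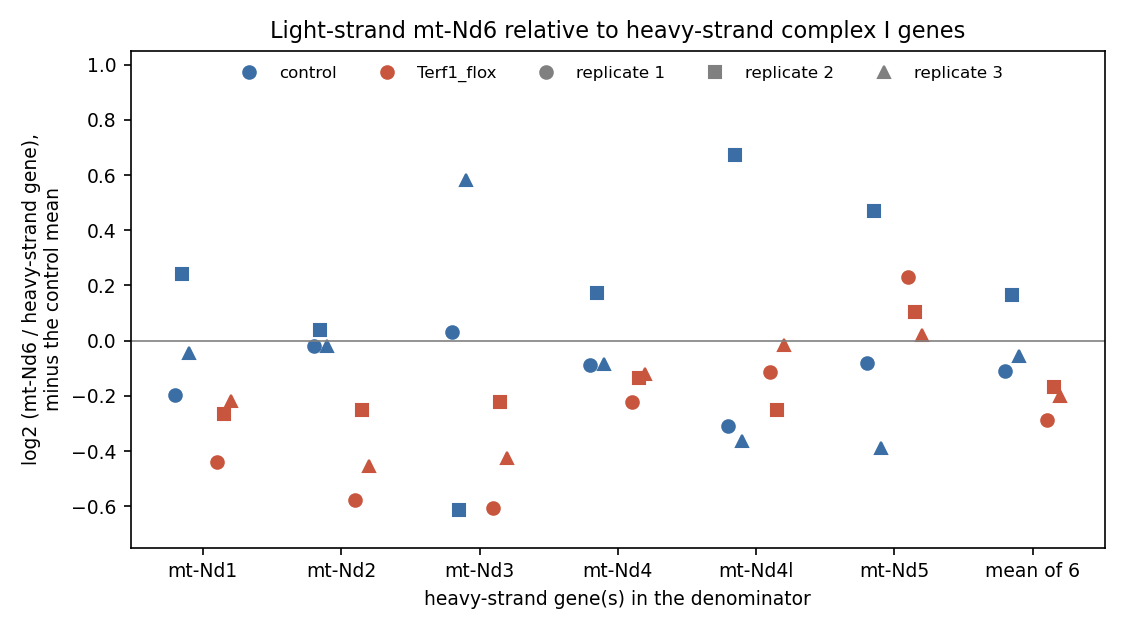
Log2 ratio of mt-Nd6 to each heavy-strand member, and to the mean of 6, minus the control mean of that ratio (y axis), for each denominator (x axis); points are libraries, coloured by group, with marker shapes for replicate numbers. The groups are apart for mt-Nd1, mt-Nd2, mt-Nd4 and the mean of 6, and overlap for mt-Nd3, mt-Nd4l and mt-Nd5.

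The members as a whole took a larger share of the library in Terf1_flox cells, with overlap. They held 3.68%, 4.76% and 2.53% of all reads in controls and 5.64%, 4.45% and 5.98% in Terf1_flox libraries, with means of 3.66 ± 1.12% and 5.35 ± 0.80%. Control replicate 2 lay above Terf1_flox replicate 2, and the exact two-sided permutation p was 0.2. The heavy-strand members alone held 3.34 ± 0.99% and 4.97 ± 0.75% (exact permutation p = 0.2) and mt-Nd6 0.317 ± 0.132% and 0.389 ± 0.053% (exact permutation p = 0.5).

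Within the mitochondrial mRNAs the complex I share was not distinguishable between groups. Of the reads of the 13 mitochondrial protein genes, the members held 31.4%, 45.0% and 27.1% in controls and 34.8%, 31.1% and 32.0% in Terf1_flox libraries (exact permutation p = 0.9). The value of control replicate 2 stood well above the other 5. The difference between group means was −1.90 percentage points and 3.37 without that library, so its direction rests on 1 library. Each member was also set against the mean log2 value of the other 12 mitochondrial mRNAs. By this measure mt-Nd5 was lower in Terf1_flox libraries by a log2 difference of −0.43, mt-Nd6 by −0.30 and mt-Nd4 by −0.13, each with an exact permutation p of 0.1. For mt-Nd1 and mt-Nd2 the differences were 0.04 and 0.17 (exact permutation p = 0.8 and 0.3), and for mt-Nd3 and mt-Nd4l 0.15 and −0.16 (exact permutation p = 0.8 and 0.5).

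The 6 other mitochondrial mRNAs were also higher in Terf1_flox libraries, with a median log2 fold change of 0.93. For 5 of the 6 the groups did not overlap (10.3% of all genes tested), and DESeq2 called 4 higher (2.21% of all genes tested). The largest was mt-Atp8, which encodes an ATP synthase subunit, at 1.40 ± 0.22 (limma Benjamini-Hochberg adjusted p = 0.0814, DESeq2 adjusted p = 1.93e-05), and the smallest was mt-Co1, of cytochrome c oxidase, at 0.23 ± 0.17. After the correction for GC content and length mt-Atp8 was at 0.06 and mt-Cytb at 0.65, and the median of the 6 was 0.37. As deposited, the members therefore lay inside the range of the other mRNAs of the same genome. With the correction mt-Nd3 (−0.14), mt-Nd4l (−0.20) and mt-Nd6 (−0.35) were below 0 and the other 4 members above it. The mitochondrial rRNAs mt-Rnr1 and mt-Rnr2 had log2 fold changes of 0.53 ± 0.32 and 0.57 ± 0.22, with overlap for both. These were 0.02 and 0.28 after the correction. Rows of the mitochondrial genome together held 10.33% to 13.04% of reads in controls and 16.15% to 20.60% in Terf1_flox libraries.

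Base composition moved with the group difference across all genes, and the members are among the AT-rich genes. All 7 fell in the quintile of tested genes with the lowest transcript GC content (25.6% to 44.0%), whose 2898 genes had a median log2 fold change of 0.37, with 65.5% above 0. The quintile with the highest GC content had a median of −0.49. The 373 genes that were both in the lowest GC quintile and in the shortest quintile (59 to 931 bases), which hold 3 members, had a median of 0.64. The log2 values were then corrected for GC content and length. Log2 fold changes became 0.41 ± 0.25 for mt-Nd1, 0.51 ± 0.30 for mt-Nd2, 0.38 ± 0.25 for mt-Nd4 and 0.19 ± 0.17 for mt-Nd5. They were −0.14 ± 0.49 for mt-Nd3, −0.20 ± 0.56 for mt-Nd4l and −0.35 ± 0.26 for mt-Nd6, the reverse of the uncorrected direction. After the correction 0 of 7 members had an unadjusted limma p below 0.05. The median of the heavy-strand members was 0.78 before and 0.29 after the correction, while that of all tested genes went from −0.08 to 0.07. The part of base composition in the members' fold changes was not tested further.

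**Figure D4:**
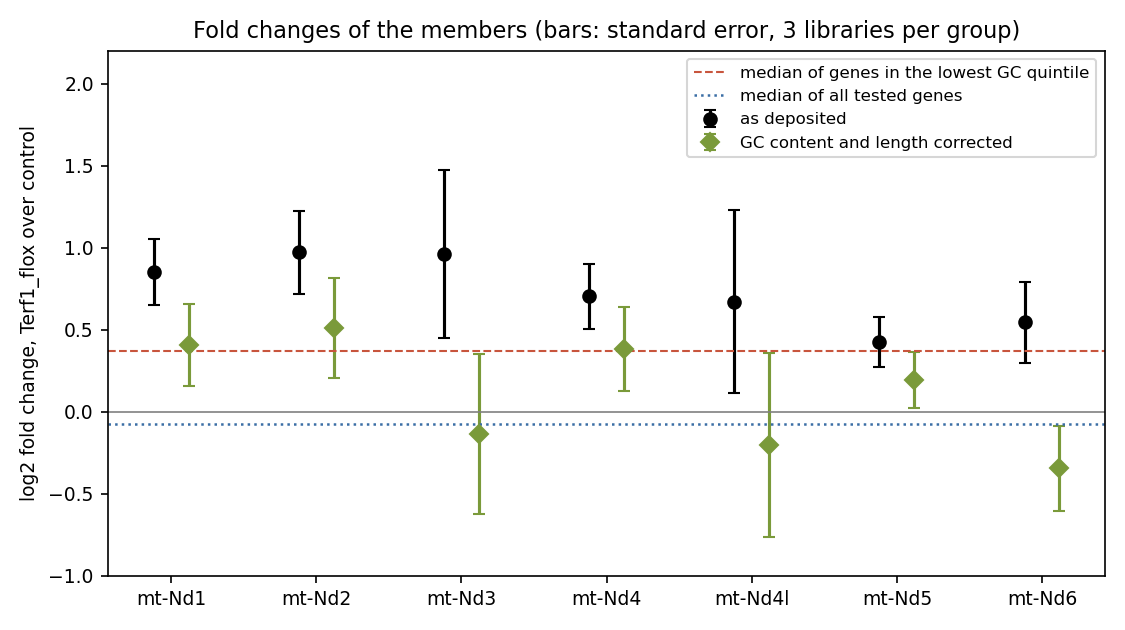
Log2 fold change of Terf1_flox over control (y axis; bars are standard errors, 3 libraries per group) for each member (x axis), as deposited and after the GC content and length correction. The dashed line is the median of the lowest GC quintile (0.37) and the dotted line that of all tested genes (−0.08); as deposited all 7 lie above both lines, and after the correction mt-Nd3, mt-Nd4l and mt-Nd6 lie below 0.

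The nuclear partners of the members did not move as a block. Of the 30 accessory subunits of complex I, 25 were higher and 5 lower in Terf1_flox libraries, with a median log2 fold change of 0.54. For 23 the groups were apart with higher values, against 10.3% of all genes tested. DESeq2 called 14 higher and 2 lower, against 2.21% and 3% of all genes tested. Ndufb1 was called higher by DESeq2, with a limma log2 fold change of 1.14 ± 0.20, as were Ndufc1 (0.80 ± 0.14) and Ndufa3 (0.82 ± 0.15). Ndufa9, an accessory subunit of the peripheral arm near the quinone site, was called lower, at −1.30 ± 0.24. Of the 7 nuclear core subunits, which carry the flavin and the iron-sulfur clusters, 2 were higher and 5 lower, with a median of −0.62. DESeq2 called 2 of these lower and 0 higher. Ndufv1, which binds the flavin, was at −1.19 ± 0.29 with no overlap between groups (limma Benjamini-Hochberg adjusted p = 0.146, DESeq2 adjusted p = 0.00227). Ndufv2, an iron-sulfur subunit beside it, was at 0.51 ± 0.20 (limma Benjamini-Hochberg adjusted p = 0.318). The 17 assembly factors in the table were mixed, with 7 higher, 10 lower and a median of −0.19, and DESeq2 called 0. After the GC content and length correction the medians were 0.61 for the accessory, −0.14 for the core and 0.04 for the assembly genes. In each of these lists the limma calls numbered 0 at an adjusted p below 0.05. At an unadjusted limma p below 0.05 there were 22 higher and 2 lower accessory, 1 higher and 4 lower core, and 0 higher and 1 lower assembly genes. Of all genes tested, 5.7% were higher at this threshold, and 2095 of 14822 passed it in either direction.

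Among genes that make and keep mitochondrial RNA, DESeq2 called 1 transcription gene and 1 stability gene higher and 0 lower. Over all genes tested it called 2.21% higher and 3% lower, so these counts are not read as a result about the lists. Of 11 genes of mitochondrial transcription, 5 were higher and 6 lower, with a median of −0.02. Polrmt, the mitochondrial RNA polymerase, held 157, 125 and 150 normalized counts in controls and 79.4, 1.03 and 167 in Terf1_flox libraries, with overlap. Mterf3, a mitochondrial transcription factor family member, was called higher by DESeq2 (adjusted p = 0.0286), with a limma log2 fold change of 1.03 ± 0.31. Among 10 genes of mitochondrial RNA stability, with a median of −0.18, the partners Slirp and Lrpprc, which together protect mitochondrial mRNAs, differed in direction. Slirp held 1279, 1132 and 1296 normalized counts in controls and 2776, 2998 and 2220 in Terf1_flox libraries, a log2 fold change of 1.10 ± 0.24 (DESeq2 adjusted p = 0.00193). Lrpprc was at −1.05 ± 0.38 with no overlap and was not called. Of 10 genes of mitochondrial RNA processing 7 were lower, with a median of −0.84, and DESeq2 called 0.

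Genes of mitochondrial DNA upkeep and organelle number gave values on both sides of 0. Among 9 replication genes, with a median of −0.50, Ssbp1, the single-strand binding protein of mitochondrial DNA, was called higher by DESeq2 (adjusted p = 0.00608), with a limma log2 fold change of 0.95 ± 0.23. Ppargc1a, a coactivator that drives mitochondrial biogenesis, was at 0.40 ± 0.19 with no overlap between groups and was not called. The median was 0.21 over 12 biogenesis regulators and −0.42 over 9 mitophagy genes, and DESeq2 called 0 in both lists (2.21% of all genes tested higher and 3% lower). After the GC content and length correction the median was −0.05 for transcription, −0.12 for stability, −0.23 for processing, −0.23 for replication, 0.48 for biogenesis and −0.03 for mitophagy. Across these lists the limma calls numbered 0 at an adjusted p below 0.05. At an unadjusted limma p below 0.05 there were 2 transcription, 2 stability, 1 processing, 2 replication, 0 biogenesis and 2 mitophagy genes. These counts take both directions together. Of all 14822 genes tested, 2095 passed the same threshold, and the counts are not read as a result about the lists.

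The nuclear genes most like the members were picked by Pearson's r of log2 values over the 6 libraries, among 9737 nuclear genes with a mean of at least 50, genes with Gm or Rik names left out. Closest to the mean of the heavy-strand members were Polr1h (r = 0.9999), Tinagl1 (0.996), Otud4 (0.993), Mrpl52 (0.990) and Pantr1 (0.987). Closest to mt-Nd6 were Bri3 (0.993), Lmo7 (0.987), Adgrg3 (0.985), Bdp1 (0.982) and Dhx38 (0.969). No gene was in both lists of 5. With 6 libraries and this many candidates, high values of r are picked by the search itself and are given as a description only.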

How the data were processed

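Polyadenylated RNA of sorted kidney epithelial cells was measured in 6 libraries. The values deposited by the authors are normalized counts, that is, a signal of reads scaled per library; DESeq2 and build GRCm39 are named per the submitters' processing notes. Processing went on with an aligner, counting tool, annotation and strand setting not given in the sources used here. In each library 100% of values were multiples of the value of 1 read (within 0.01 of a read), so whole reads were recovered. Values were not divided by length except where given per kb.

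Log2 of the normalized count plus 1 was tested with limma (3.58.1, R 4.3.3; moderated variances with a trend, two-sided, Benjamini-Hochberg over 14822 genes whose mean was at least 10, threshold 0.05). Fold changes are differences of mean log2(value + 1), which can depart from the ratio of group means, above all in low genes whose libraries spread widely. Recovered reads were tested with edgeR (4.0.16) and DESeq2 (1.42.0). Library shares and ratios were tested by exact permutation. The tests were tried on simulated data. Transcript sequence, length and GC content came from GENCODE M21 (GRCm38) for 15701 of 16095 genes (97.6%), matched by symbol; nuclear copies were sought with blastn (2.17.0; at least 60 aligned bases and 85% identity) and 50-base windows. Figures used matplotlib (3.10.9).

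Members and gene lists were chosen with earlier results of these data known. Named genes were the members, the other mitochondrial mRNAs and rRNAs, Terf1, up to 4 genes per list with the smallest limma p and a mean of at least 50, and the 5 genes most like each strand. Alternatives were other pseudocounts, filters, scalings and tests, a replicate block, Xist as a covariate, the GC content and length correction and leaving out each library. A gene that this rule names is not reported here.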

Additional observations from a re-analysis of the deposited data

How the results depend on the processing

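Across 18 alternatives for each of 7 members, 121 of 126 fold changes kept their direction and side of the threshold. This count says little of robustness, because no member passed the threshold to begin with and changes of size are not counted. With quantile normalization, for example, mt-Nd1 went from 0.85 to 0.39 and is among those that kept both. DESeq2 called 2 members, mt-Nd1 and mt-Nd2, and the GC content and length correction turned mt-Nd3 (−0.14), mt-Nd4l (−0.20) and mt-Nd6 (−0.35) below 0; the cause was not tested. The heavy-strand median of 0.78 became 0.29 with that correction. The mt-Nd6 ratio of −0.22 became −0.54 with it and −0.34 with quantile normalization, and ran from −0.27 to −0.14 when each library was left out. The members' share of mitochondrial mRNA reads differed by −5.58 to 3.37 percentage points when each library was left out, with the sign turned without control replicate 2. Genes called by limma over all genes numbered 0 as reported, 132 among genes whose mean was at least 50, 45 with equal totals, 10 with equal totals of nuclear genes and 6 with quantile normalization, and DESeq2 called 772. Equal totals moved the median of all genes from −0.08 to −0.25 and quantile normalization to 0.05; the 7 members stayed above 0 under both, and the heavy-strand median was 0.60 and 0.51. Replicate numbers are shared between groups, but same-numbered libraries did not deviate together over all genes tested (correlations of −0.05, 0.00 and −0.01). Pairing that touches few genes would not show in these correlations. With a replicate block limma called 0 genes. The heavy-strand median was 0.78 with it, a value that the block cannot change because each replicate number has 1 library per group. The member with the fewest reads was mt-Nd4l, with 97 to 170 a library.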

Other observations

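Rows named for mitochondrial tRNAs differed by strand. All 8 light-strand tRNA genes had a row, with a median of 917 normalized counts over their means, and 9 of the 14 heavy-strand tRNA genes had one, with a median of 11.4. The highest light-strand value was that of mt-Ts1, a serine tRNA, with a mean of 11503, and the highest heavy-strand value that of mt-Ti, an isoleucine tRNA, with a mean of 58.5. In single libraries mt-Ts1 held 9184, 13439 and 7105 in controls and 12048, 12193 and 15047 in Terf1_flox libraries, with overlap. The tRNA gene beside mt-Nd6, mt-Te, a glutamate tRNA of the same strand, held 1339, 2336 and 761 in controls and 1996, 1827 and 2549 in Terf1_flox libraries. As for mt-Nd6, control replicate 3 was lowest and Terf1_flox replicate 3 highest for mt-Te. The strand of these reads is not known here.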
